A study of Mus musculus with 12 samples.

Results

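The transcriptional response to sciatic nerve axotomy (SNA) was measured in the dorsal root ganglia (DRG) of mice that had lived in environmental enrichment (EE), by setting 3 samples of EE + SNA against 3 samples of EE Sham. These are 6 of the 12 RNA sequencing samples of a study that crossed housing with surgery, and they were taken by their labels. The other 6, SH SNA and SH Sham, come from mice in standard housing (SH) and are used here only to set the enriched response beside the same injury in standard cages. All animals were C57BL/6 mice, 5 to 8 weeks old. EE + SNA mice spent 10 days in cages with more space, companions, nesting material and objects and a running wheel, and their sciatic nerve was then cut through. EE Sham mice had the same housing and an operation that exposed the nerve without cutting it. The sciatic DRG of lumbar levels L4 to L6 were collected 24 h after surgery, and each sample pooled the ganglia of 2 mice, so that each group stands for 6 mice. Samples of a group are separate pools, and the P-values measure the spread between pools. The paper names EE Sham as a dataset that had been described before, and neither it nor the labels say whether those libraries were prepared together with EE + SNA. Any difference in preparation between the 2 groups cannot be told apart from the axotomy.

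The DRG holds the cell bodies of the sensory neurons whose axons run in the sciatic nerve, wrapped by satellite glia and accompanied by Schwann cells, vessels and macrophages. When the peripheral axon is cut, these neurons switch on a program of injury genes, led by the transcription factors ATF3 and JUN, that raises cytoskeletal and growth-cone proteins, changes the peptides the neurons make and lowers channels, transmitter receptors and other genes of the working neuron. An earlier injury of the peripheral branch is known to raise regrowth after a later one, the conditioning lesion effect. Because whole ganglia were sequenced, fewer cells of a type and less RNA per cell cannot be told apart.

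The 6 libraries held 11343579 to 22871460 reads on genes, with EE + SNA 2 the deepest and the other 5 at 12963937 reads or fewer. Levels are given as CPM, the reads of a gene relative to all reads on genes in the library, scaled by TMM. Tests were edgeR quasi-likelihood tests on the counts, two-sided, with Benjamini-Hochberg adjustment over all 16238 genes tested, and "rose" and "fell" are used only of genes with an adjusted P-value below 0.05. Fold changes are log2 of EE + SNA over EE Sham with their standard errors (SE). Sensory neuron markers were high in all samples, with a summed level of 10 markers between 10700 and 11800 CPM, while the 7 spinal cord markers summed to 12.8 to 17.0 CPM, nearly all of it Aqp4 and Mobp, and the 10 epidermal markers to 5.78 to 8.54 CPM. In these cell markers 2 of the 6 libraries stood apart. EE + SNA 3 had a summed neutrophil marker level of 786 CPM where the other 5 samples lay between 104 and 243 CPM. EE Sham 3 had 5.04 CPM of Dbh and 5.36 CPM of Slc6a2, genes of noradrenaline synthesis and uptake in sympathetic neurons, where the other 5 samples had at most 0.725 CPM of either.

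Axotomy changed 785 genes in enriched mice, 4.83% of the genes tested. Of these, 407 rose (2.51% of the genes tested) and 378 fell (2.33%). The median log2 fold change was 0.52 among the genes that rose and −0.45 among those that fell, against 0.00386 over all genes tested. Of the larger changes, 55 genes rose by more than 1 on the log2 scale and 16 fell by more than 1. The groups did not overlap in 4187 genes, which is 25.8% of the genes tested, and in all 785 of the genes that changed. The number of genes that changed moved when 1 sample was left out. It was 361 without EE Sham 3, 376 without EE + SNA 1, 481 without EE Sham 1 and 497 without EE + SNA 3. Only without EE Sham 2 was it higher, at 1082. Leaving out a sample also leaves fewer pools to test. At an unadjusted P below 0.05 the count was 3352 with all samples and 2468 to 3939 with 1 left out. Without both EE + SNA 3 and EE Sham 3, 235 genes changed, and 65.5% of them rose, against 51.8% with all 6 samples.

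**Figure D1:**
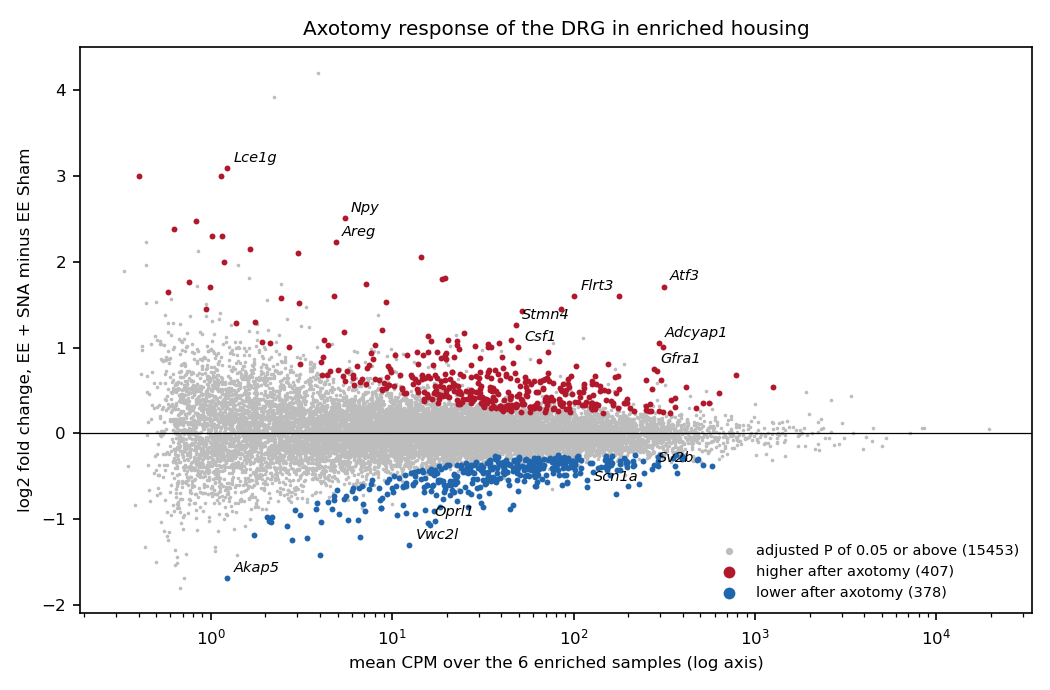
Log2 fold change of EE + SNA over EE Sham (y axis) against the mean CPM over the 6 enriched samples (x axis, log scale) for the 16238 genes tested, with 1 point a gene. The 407 genes that rose (red) reach higher log2 fold changes than the 378 that fell (blue) reach below 0, and Atf3 combines a large change with a high level.

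The 6 genes taken as a check of the labels all rose. Atf3 (chr1:191170296-191218039, minus strand, GRCm38), the transcription factor that marks axotomized neurons, stood at 480, 454 and 516 CPM in EE + SNA and at 136, 136 and 168 CPM in EE Sham. The lowest injured sample was therefore well over the highest sham sample, and the log2 fold change was 1.71 (SE 0.0894, adjusted P = 4.24e-06), which is at the smallest adjusted P-value in the comparison. Jun, its partner in AP-1 dimers, was at 223, 206 and 219 CPM against 141, 127 and 137 CPM (0.67, SE 0.0660, adjusted P = 0.000229). Jun shares 232 exon bases with the antisense gene Junos, and the strand setting of the counting is not given in the sources used here. Sox11, a transcription factor of immature and regenerating neurons, was at 13.7, 11.7 and 11.7 CPM against 5.50, 4.48 and 6.01 CPM (1.2, SE 0.144). Sprr1a, a small proline-rich protein that appears in injured neurons, was at 30.5, 18.1 and 40.1 CPM against 10.5, 6.00 and 8.53 CPM (1.81, SE 0.269), and its injured samples spread widely without reaching the sham range. Gal, which encodes the peptide galanin, was at 39.5, 34.1 and 45.0 CPM against 17.8, 22.5 and 23.1 CPM (0.88, SE 0.122). Gap43, a growth-cone protein, was already at 218, 223 and 226 CPM in EE Sham and reached 278, 272 and 284 CPM in EE + SNA (0.31, SE 0.0594, adjusted P = 0.0104). Its call was lost without EE + SNA 1 (adjusted P = 0.0619) and without EE Sham 3 (adjusted P = 0.0603).

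The 10 genes that rose most, taken from genes without overlap between the groups whose mean reached 1 CPM, mix neuronal, secreted and non-neuronal products, and 8 of them had a mean below 5 CPM. Areg (chr5:91139599-91148432, plus strand), which encodes amphiregulin, a ligand of the EGF receptor, was at 6.41, 5.18 and 12.7 CPM against 2.08, 1.75 and 1.22 CPM (2.23, SE 0.352). EE + SNA 3 was the highest of its group for Areg, and the other 2 injured samples were still above all shams. Npy (chr6:49822710-49829507, plus strand), which encodes neuropeptide Y, was at 11.4, 7.70 and 8.95 CPM against 0.181, 0.759 and 3.82 CPM (2.51, SE 0.498, adjusted P = 0.0138). The sham samples of Npy differed widely from each other, and the highest was EE Sham 3, the sample with sympathetic markers. Npy is also made by sympathetic neurons, and the part of those cells in its level was not tested. Without EE Sham 3 its log2 fold change was 4.19 (adjusted P = 0.000934), and without EE + SNA 1 it was 2.35 and its call was lost (adjusted P = 0.0521).

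Of the other genes that rose most, Acvr1c (chr2:58267453-58357895, minus strand) encodes ALK7, a receptor of activin-related ligands, and Chrna5 (chr9:54980880-55007779, plus strand) the alpha5 subunit of nicotinic receptors. Acvr1c was at 1.96, 1.44 and 1.69 CPM against 0.181, 0.152 and 0.650 CPM (2.30, SE 0.451), and it shares 168 exon bases with an antisense gene. Chrna5 was at 2.05, 1.87 and 1.77 CPM against 0.451, 0.607 and 0.325 CPM (2.00, SE 0.327). In neither gene did the groups reach into each other, which the choice of the genes required. Saa1 (chr7:46740497-46742980, minus strand), a serum amyloid A protein of the acute phase, was at 3.65, 4.66 and 6.37 CPM against 1.35, 0.607 and 1.46 CPM (2.10, SE 0.309). Its close paralog Saa2 was at 1.69, 1.26 and 1.45 CPM against 0.722, 0.683 and 0.325 CPM without passing the test (1.30, adjusted P = 0.0595), and how the counting divided reads between the pair is uncertain. 

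The remaining 4 genes are best known from skin and muscle. Lce1g (chr3:92750148-92752338, minus strand), which encodes a late cornified envelope protein, had the largest log2 fold change, 3.10 (SE 0.519, adjusted P = 0.00523), at 2.14, 1.78 and 2.74 CPM against 0.271, 0.455 and 0 CPM. Cd207 (chr6:83671215-83677857, minus strand), which encodes langerin, the lectin of Langerhans cells, was at 2.14, 1.83 and 1.85 CPM against 0.451, 0.455 and 0.244 CPM (2.30, SE 0.339). Of 10 epidermal markers, Krt5 and Flg were at 0 in all 6 samples and Krt15 at no more than 0.0806 CPM, while Krt10 was at 2.05, 2.09 and 2.98 CPM against 1.80, 2.50 and 2.19 CPM. None of the 3 tested epidermal markers changed (median 0.10), and the sum of all 10 was 6.23 to 8.54 CPM in EE + SNA and 5.78 to 7.21 CPM in EE Sham. The part of skin RNA in Lce1g and Cd207 was not tested. Cd207 was the only one of the 5 tested dendritic and Langerhans cell markers to rise (median 0.375), and the sums of that list overlapped at 23.1 to 28.1 CPM and 22.5 to 30.0 CPM. Abra (chr15:41864076-41869720, minus strand), an actin-binding protein of muscle, was at 1.69, 1.87 and 2.58 CPM against 0, 0.380 and 0.325 CPM (3.0, SE 0.501). Mstn (chr1:53061640-53068079, plus strand), which encodes myostatin, the secreted inhibitor of muscle growth, was at 2.23, 3.0 and 2.82 CPM against 0.632, 0.304 and 0.894 CPM (2.15, SE 0.340). None of the 10 skeletal muscle markers changed, with a median of 0.635, and their sums overlapped, at 231, 237 and 335 CPM in EE + SNA and 127, 175 and 308 CPM in EE Sham when put in order. The part of muscle RNA in Abra and Mstn was not tested.

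**Figure D2:**
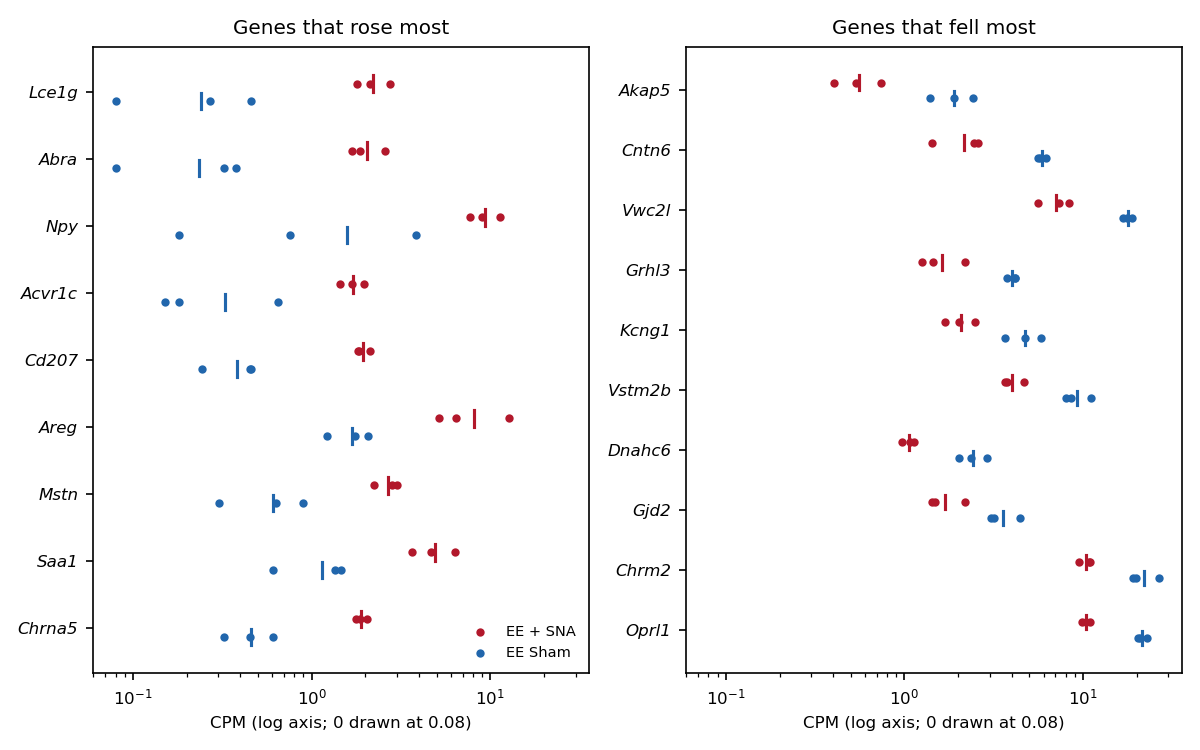
CPM (x axis, log scale, with 0 drawn at 0.08) of 9 of the 10 genes that rose most (left) and the 10 that fell most (right), with 1 point for each of the 3 EE + SNA samples (red) and 3 EE Sham samples (blue) and a vertical bar at each group's mean. No gene has overlapping groups, which the choice of the genes required, and the sham points of Npy lie from 0.181 to 3.82 CPM.

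Promoter sequences are shown for the rising genes that hold the letters bound by the factors that rose with them, because ATF3 and JUN bind AP-1 and CRE elements. Windows from 250 bases before to 50 bases after each annotated start were taken from RefSeq (GRCm38.p6), and searched for TGANTCA (AP-1) and TGACGTCA (CRE), which read the same on both strands and do not overlap each other. Of the 16 genes described above, 13 had a window and 4 held a match, and of the 10 genes that fell most, 9 had a window and 1, Dnahc6, held a match. Windows were found for 73.5% of the genes tested, and 5.26% of those windows held the AP-1 letters and 2.83% the CRE letters. Among all 32851 windows of the table, 7.81% held the AP-1 letters and 1.79% the CRE letters. These shares count windows, whereas the counts before them are of genes, some with several windows. Windows were found for 78.1% of the genes that rose and 75.7% of those that fell, under the 80% set for a comparison of the shares, so none is made. A match describes letters and is not a bound site. Each sequence runs 5′ to 3′ on the gene's strand, upstream of the start, with the matching letters in capitals.
Sprr1a, chr3:92485951-92486067, minus strand, 2 AP-1 matches: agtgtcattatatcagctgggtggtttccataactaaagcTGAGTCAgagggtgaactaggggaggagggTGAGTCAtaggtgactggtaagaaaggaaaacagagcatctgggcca
Areg, chr5:91139498-91139585, plus strand, 1 CRE match: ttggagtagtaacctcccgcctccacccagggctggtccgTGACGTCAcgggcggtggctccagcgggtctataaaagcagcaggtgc
Mstn, chr1:53061430-53061516, plus strand, 1 AP-1 match: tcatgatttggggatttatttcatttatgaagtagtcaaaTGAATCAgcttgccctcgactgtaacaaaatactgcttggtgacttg
Cd207, chr6:83677858-83677904, minus strand, 1 AP-1 match: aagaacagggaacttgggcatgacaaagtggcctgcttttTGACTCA

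The 10 genes that fell most encode products of varied kinds, among them receptors, an adhesion molecule, a channel subunit, a transcription factor and a dynein. Oprl1 (chr2:181715016-181720985, plus strand), the receptor for nociceptin, had the tightest groups, at 9.79, 10.4 and 11.0 CPM after axotomy and 20.2, 22.8 and 20.9 CPM after sham surgery (−1.04, SE 0.101, adjusted P = 0.000213). Vwc2l (chr1:70725715-70885397, plus strand), which encodes a secreted protein with a von Willebrand factor C domain, was at 7.30, 8.35 and 5.56 CPM against 18.8, 16.8 and 17.6 CPM (−1.30, SE 0.140, adjusted P = 0.000407). Chrm2 (chr6:36388084-36528414, plus strand), the M2 muscarinic receptor, was at 10.8, 10.9 and 9.43 CPM against 26.7, 18.9 and 19.7 CPM (−1.07, SE 0.137, adjusted P = 0.00110). These 3 had the most reads of the 10. Vstm2b, with an immunoglobulin-like domain, was at 3.74, 3.66 and 4.67 CPM against 11.1, 8.58 and 8.04 CPM (−1.21, SE 0.170). Chrm2 and Vstm2b share 142 and 222 exon bases with genes on the other strand.

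Among the genes with fewer reads, Akap5 (chr12:76324891-76334153, plus strand), which anchors protein kinase A and other enzymes at the membrane, had the largest fall, from 1.90, 2.43 and 1.38 CPM to 0.534, 0.740 and 0.403 CPM (−1.69, SE 0.347, adjusted P = 0.0165). Cntn6 (chr6:104492790-104863406, plus strand), a contactin adhesion molecule of neurons, went from 6.23, 5.62 and 5.77 CPM to 1.42, 2.44 and 2.58 CPM (−1.42, SE 0.210). Kcng1 (chr2:168260117-168281736, minus strand), a modifier subunit of voltage-gated potassium channels, went from 5.78, 3.64 and 4.71 CPM to 2.49, 1.70 and 2.02 CPM (−1.22, SE 0.233). Grhl3, a grainyhead-like transcription factor, fell by 1.24 on the log2 scale (SE 0.235), and Gjd2, which encodes the gap junction protein connexin 36, fell by 1.08 (SE 0.249). Dnahc6, a dynein heavy chain, fell by 1.19 (SE 0.263), and it shares 167 exon bases with a gene on the other strand. In each of these the lowest sham sample was above the highest injured sample, which the choice of the genes required. Several of these calls were lost when 1 sample was left out, which also leaves fewer pools to test. Dnahc6 was lost without any of 5 of the 6 samples (all but EE Sham 3), with adjusted P-values from 0.0514 to 0.0810. Its log2 fold change in those fits stayed between −1.265 and −1.039. Gjd2 was lost without EE + SNA 1 (0.109), EE + SNA 2 (0.0903), EE Sham 1 (0.120) or EE Sham 3 (0.0745). Akap5 was lost without EE + SNA 1 (adjusted P = 0.0650) and Kcng1 without EE Sham 3 (adjusted P = 0.0523).

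Beyond the largest changes, 26 lists of genes by function were read gene by gene in the same fit. Over all genes tested, 2.51% rose and 2.33% fell, and no list count was tested against these shares. Of 16 transcription factors of the injury response, 7 rose and none fell, with a median log2 fold change of 0.48 over the 16. Besides Atf3, Sox11 and Jun, these were Klf6, Smad1, Crem and Myc. Klf6, a zinc-finger factor linked to axon growth, was at 206, 172 and 211 CPM against 119, 102 and 114 CPM (0.81, SE 0.0873). Smad1, which carries BMP signals to the nucleus, was at 68.7, 63.4 and 67.3 CPM against 43.1, 41.4 and 40.8 CPM (0.66, SE 0.0662). Crem, of the CREB family, was at 22.1, 20.3 and 22.6 CPM against 14.6, 12.6 and 14.1 CPM (0.64, adjusted P = 0.00296). In each of these the lowest injured sample was above the highest sham, as in every gene that rose. Stat3, the factor activated by interleukin 6 family cytokines, did not pass the test in its mRNA, at 381, 394 and 392 CPM against 364, 342 and 374 CPM (0.10, adjusted P = 0.363). Egr1 and Klf4 were the 2 members with a fitted value below 0, at −0.09 and −0.14.

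The effectors of axon growth had 10 of 14 members higher, none lower and a median of 0.51. Stmn4, a stathmin that binds tubulin, went from 28.2, 27.3 and 28.9 CPM to 65.9, 65.3 and 72.3 CPM (1.26, SE 0.0710, adjusted P = 4.24e-06), with narrow groups. Flrt3, a transmembrane protein with leucine-rich repeats, went from 52.8, 41.3 and 55.0 CPM to 164, 131 and 160 CPM (1.6, SE 0.112). Tubb6, a beta-tubulin, went from 21.8, 23.2 and 24.1 CPM to 49.1, 45.6 and 45.3 CPM (1.01, SE 0.0769). Plaur, the urokinase receptor, went from 14.1, 16.6 and 15.0 CPM to 36.1, 32.9 and 34.9 CPM (1.17, SE 0.0927). The others were the integrin Itga7 (0.73), the small heat shock protein Hspb1 (0.62), Cd44 (0.39), Tubb2b (0.30), Sprr1a and Gap43. The 4 that did not pass, Stmn2, Basp1, Marcks and Ecel1, had fitted values between 0.14 and 0.37.

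Peptides split into a few that rose and a majority that did not. Of 13 neuropeptides, 11 were tested and 4 rose, with a median of 0.0714. Adcyap1, which encodes PACAP, was at 394, 358 and 441 CPM against 200, 170 and 204 CPM (1.05, SE 0.0894, adjusted P = 0.000103). Nts, which encodes neurotensin, was at 20.9, 23.3 and 25.7 CPM against 12.7, 9.26 and 14.4 CPM (0.94, SE 0.142), and Npy and Gal complete the 4. Calca, the CGRP gene, and Tac1, the substance P gene, did not pass the test. After axotomy Calca was at 1517 to 1636 CPM and Tac1 at 324 to 329 CPM, with fitted values of 0.07 and 0.06. Vip and Cck were too low to test, and Vip was at 1.85 CPM in EE + SNA 3 and 1.71 CPM in EE Sham 3 and at no more than 0.267 CPM in the other 4 samples.

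Among 20 secreted ligands, 16 were tested, 3 rose and 1 fell. Csf1, the growth factor of macrophages and microglia, went from 33.6, 30.0 and 34.0 CPM to 67.9, 57.9 and 71.8 CPM (1.01, SE 0.0902, adjusted P = 0.000152), and the lowest injured sample was well above the highest sham. Il6 went from 1.35, 0.987 and 1.30 CPM to 3.92, 3.66 and 3.39 CPM (1.58, SE 0.226, adjusted P = 0.00226). Areg is the other that rose. Nrg1, the neuregulin that signals to Schwann cells, fell from 56.6, 50.6 and 53.1 CPM to 39.6, 42.0 and 37.2 CPM (−0.43, SE 0.0739), and shares 482 exon bases with an antisense gene. Il1b was at 0.534 to 0.967 CPM against 0.181 to 0.487 CPM (1.13, SE 0.499, adjusted P = 0.225). Tnf, Gdnf, Artn and Osm were too low to test.

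Of 20 trophic and cytokine receptors, 4 rose and none fell, with a median of −0.0153, and 1 fell without EE Sham 2. Gfra1, the binding subunit for GDNF, went from 212, 197 and 212 CPM to 370, 324 and 359 CPM (0.75, SE 0.0689, adjusted P = 0.000162), with 416 exon bases shared with an antisense gene. Gfra3, the artemin subunit, went from 39.3, 38.2 and 37.3 CPM to 51.0, 54.0 and 49.4 CPM (0.42, SE 0.0687). Il1r1, the interleukin 1 receptor, was at 19.7, 19.2 and 21.8 CPM against 15.6, 13.5 and 14.1 CPM (0.48, SE 0.0987), and lost its call without EE + SNA 1 (adjusted P = 0.0562), EE + SNA 3 (0.0554) or EE Sham 3 (0.0853). Acvr1c is the fourth. The neurotrophin receptors Ntrk2 and Ntrk3 did not pass the test, at −0.17 and −0.30, and the co-receptor Il6st was at 0.01.

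**Figure D3:**
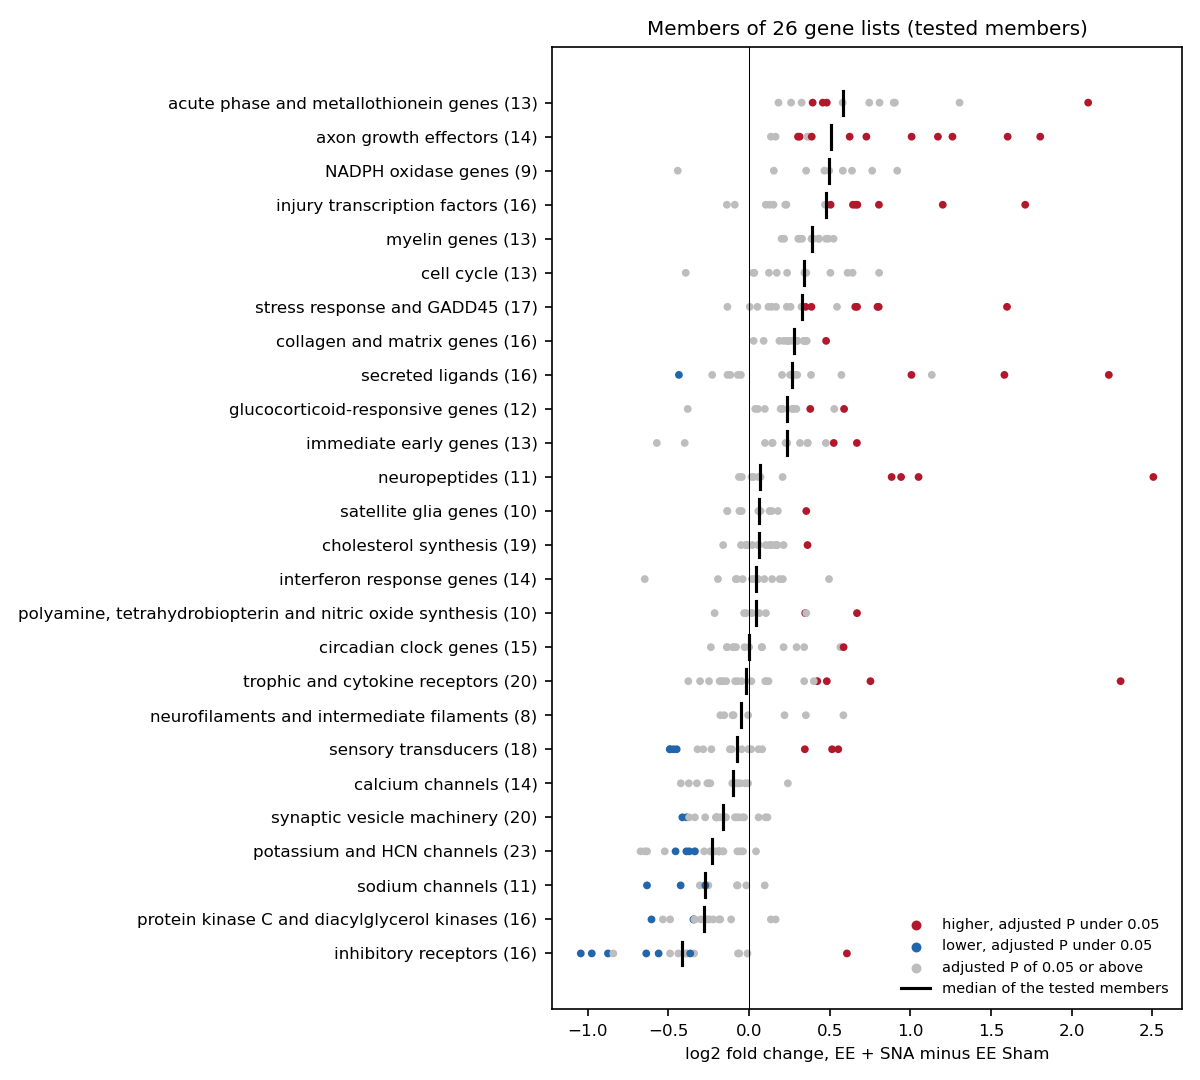
Log2 fold change of EE + SNA over EE Sham (x axis) for every tested member of the 26 function lists, with 1 point a gene, red where it rose, blue where it fell and grey otherwise, and a black bar at each list's median. Medians run from −0.41 for inhibitory receptors to 0.58 for acute phase genes, and in lists such as neuropeptides a few genes far from 0 stand apart from a median near 0.

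Of 11 sodium channel subunits, 3 fell and none rose, with a median of −0.27 and a fitted value below 0 in 10. Scn1a, which encodes NaV1.1, fell from 167, 132 and 135 CPM to 93.6, 99.5 and 87.4 CPM (−0.63, SE 0.0911, adjusted P = 0.00242). Scn8a, which encodes NaV1.6, fell from 229, 187 and 183 CPM to 155, 153 and 140 CPM (−0.42, SE 0.0867), and the beta subunit Scn4b from 445, 431 and 411 CPM to 359, 356 and 357 CPM (−0.27, SE 0.0590). In all 3 the injured samples lay below the lowest sham, as in every gene that fell. Scn10a, the NaV1.8 channel of nociceptors, was at 577, 638 and 495 CPM against 772, 654 and 678 CPM and did not pass (−0.30, adjusted P = 0.0853). Without EE + SNA 3 or without both EE + SNA 3 and EE Sham 3 only 1 gene of the list, Scn1a, was called, and in the first of these fits Scn8a had an adjusted P of 0.0504 and Scn4b of 0.0625, and Scn4b also lost its call without EE + SNA 1 (0.1), EE + SNA 2 (0.0561), EE Sham 1 (0.0620) and EE Sham 3 (0.0626).

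Of 23 potassium and HCN channel subunits, 4 fell and none rose, and 22 of the 23 had a fitted value below 0, with a median of −0.23. Kcns1 and Kcns3, silent subunits that modify Kv2 channels, fell from 50.3, 44.2 and 47.6 CPM to 36.7, 33.0 and 34.7 CPM (−0.45, SE 0.0752) and from 71.6, 72.1 and 72.0 CPM to 57.9, 58.4 and 55.3 CPM (−0.34, SE 0.0627). Kcnd1, a subunit of A-type channels, fell from 194, 172 and 179 CPM to 143, 147 and 133 CPM (−0.37, SE 0.0693), and Kcnc1, which encodes Kv3.1, from 74.9, 67.0 and 63.0 CPM to 51.6, 50.6 and 55.1 CPM (−0.39, SE 0.0757). Each of the 4 had injured samples below every sham, as did every gene that fell. Kcns3 lost its call without EE Sham 3 (adjusted P = 0.0547) and Kcnc1 without EE + SNA 1 (adjusted P = 0.0619), whereas without EE + SNA 2 the list had 7 genes lower, and without both EE + SNA 3 and EE Sham 3 it had 1. Kcna2 and Kcnb2 had larger fitted values, −0.65 and −0.67, and did not pass, with Kcna2 at 62.7, 72.3 and 40.9 CPM against 116, 82.6 and 78.9 CPM. None of 14 calcium channel subunits changed (median −0.10), although 1 was higher without EE Sham 1 and 1 lower without EE + SNA 3 or EE Sham 2, and Cacna2d1, the gabapentin-binding subunit, had the highest value, at 401, 367 and 353 CPM against 354, 279 and 312 CPM (0.24, adjusted P = 0.132).

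Sensory transducers moved in both directions, with 3 of 18 higher, 4 lower and a median of −0.0756. P2rx5, an ATP-gated channel, rose from 16.4, 14.6 and 13.2 CPM to 22.3, 20.7 and 22.3 CPM (0.55, SE 0.101), and Trpv2 from 73.3, 73.9 and 73.5 CPM to 90.8, 96.6 and 94.4 CPM (0.35, SE 0.0620). The mechanically gated channel Piezo1 rose by 0.52 (adjusted P = 0.0343), with 2441 exon bases shared with Ctu2 on the other strand. Asic1, an acid-sensing channel, fell from 73.5, 69.5 and 67.7 CPM to 46.6, 47.5 and 57.1 CPM (−0.49, SE 0.0822). The cold channel Trpm8 fell by 0.45 on the log2 scale and Mrgprd, a receptor of non-peptidergic nociceptors, fell by 0.47. Trpv1, Trpa1, Piezo2 and P2rx3 had values between −0.11 and 0.08 that did not pass. These counts were lower in some fits with 1 sample left out, which also have fewer pools. Without EE Sham 3 none of the list rose (Trpv2 at an adjusted P of 0.0555, P2rx5 at 0.0612) and 1 fell, and 1 fell without EE + SNA 1 or without EE Sham 1.

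The inhibitory receptors had the lowest median of the 26 lists, −0.41, with 6 of 16 lower and 1 higher. Besides Oprl1, the delta opioid receptor Oprd1 fell from 13.5, 9.71 and 10.8 CPM to 6.14, 7.70 and 4.27 CPM (−0.87, SE 0.197), and the cannabinoid receptor Cnr1 from 49.2, 38.9 and 37.2 CPM to 30.1, 28.4 and 26.8 CPM (−0.56, SE 0.102). The kappa opioid receptor Oprk1 (−0.97) and the alpha2C adrenoceptor Adra2c (−0.64) fell as well. The mu opioid receptor Oprm1 was at 11.5, 12.7 and 5.48 CPM against 17.5, 12.8 and 12.1 CPM, a spread too wide for its fitted −0.49 to pass (adjusted P = 0.281). The receptor that rose was Npy1r, one of the receptors for neuropeptide Y, from 54.0, 46.9 and 54.2 CPM to 83.1, 74.9 and 79.5 CPM (0.61, SE 0.0756, adjusted P = 0.000922). Only 2 of these receptors were lower without EE + SNA 1, without EE Sham 1 or without EE Sham 3, and 3 without EE + SNA 3. The adjusted P of Oprd1 was 0.0801, 0.0913 and 0.0819 in the first 3 of these fits.

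Of 20 genes of the synaptic vesicle machinery, 2 fell, Sv2b from 335, 295 and 297 CPM to 232, 235 and 232 CPM (−0.41, SE 0.0654) and Syt2, a synaptotagmin, from 367, 322 and 306 CPM to 267, 243 and 255 CPM (−0.39, SE 0.0749). The list had a median of −0.16, and without both EE + SNA 3 and EE Sham 3 neither gene was called (adjusted P = 0.0570 and 0.0690). The list had 4 genes lower by the edgeR likelihood ratio test, 5 by DESeq2, 5 with the replicate block, 5 without a filter on low counts and 7 in the fit of all 12 samples. None of 8 neurofilament and other intermediate filament genes changed (median −0.05), and 1 was higher without EE Sham 2, by DESeq2, by the likelihood ratio test, with the stricter filter and in the fit of all 12 samples, and 2 with the replicate block or without a filter. Nefm and Nefh, subunits of the neurofilament of large neurons, were at 4744, 4547 and 4924 CPM against 5422, 5265 and 5044 CPM (−0.15, adjusted P = 0.166) and at 1945, 1824 and 2288 CPM against 2366, 2208 and 2240 CPM (−0.18, adjusted P = 0.231). Of 16 tested protein kinase C and diacylglycerol kinase genes, 3 were lower and none higher, with a median of −0.28. Prkcz fell from 117, 113 and 112 CPM to 90.2, 92.7 and 88.5 CPM (−0.34, SE 0.0613), and Dgkg (−0.60, SE 0.132) and Prkcq (−0.34, SE 0.0877) were the other 2. Without EE + SNA 1, EE Sham 1 or EE Sham 3 only 1 of the 3 was called, with Dgkg at adjusted P-values of 0.0602, 0.0735 and 0.0796 and Prkcq at 0.126, 0.115 and 0.169. Prkcq was also lost without EE + SNA 3 (0.127), and with library sizes in place of TMM. Without EE + SNA 2 the list had 7 genes lower, without EE Sham 2 it had 6, and without EE + SNA 3 and EE Sham 3 together it had none.

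Of 17 stress response genes, 7 were higher and none lower (median 0.33), led by Gadd45a (chr6:67035096-67037457, minus strand), a gene of the response to DNA damage and other stress. Gadd45a went from 79.9, 91.2 and 93.5 CPM to 277, 238 and 292 CPM (1.6, SE 0.0905, adjusted P = 4.24e-06), and shares 337 exon bases with an antisense gene. Its sister Gadd45g rose from 21.6, 30.1 and 25.1 CPM to 42.2, 42.7 and 38.0 CPM (0.67, SE 0.111), while Gadd45b did not pass at 0.05. Cdkn1a, the cell cycle inhibitor p21, rose from 106, 147 and 138 CPM to 204, 198 and 220 CPM (0.66, SE 0.107). Chac1 (0.80), Sesn2 (0.80) and Ddit3 (0.35), targets of the integrated stress response, and Hmox1 (0.39), heme oxygenase, were the other 4. Without EE Sham 3, 4 of the 17 were higher. Of 13 tested immediate early genes 2 rose, Btg2 (0.67, SE 0.121) and Dusp1 (0.53, SE 0.0853), both lost without EE + SNA 3 and EE Sham 3 together (adjusted P = 0.0506 and 0.0575), and Fos was at 0.10 and did not pass.

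Odc1, the rate-limiting enzyme of polyamine synthesis, rose from 90.9, 111 and 99.3 CPM to 151, 148 and 183 CPM (0.67, SE 0.0973). With Sat1, which acetylates polyamines for export and breakdown (0.35, SE 0.0791), it made 2 of 10 tested genes of polyamine, tetrahydrobiopterin and nitric oxide synthesis (median 0.0415). Sat1 lost its call without EE + SNA 1 (adjusted P = 0.0874), EE + SNA 3 (0.0763), EE Sham 1 (0.0737) or EE Sham 3 (0.0836). Of 13 tested acute phase and metallothionein genes 4 rose, and the list had the highest median of the 26, 0.58. Besides Saa1 these were Socs3, the feedback inhibitor of cytokine signals, at 35.6, 33.7 and 32.0 CPM against 24.1, 24.4 and 23.6 CPM (0.48, SE 0.0788), the interleukin 4 receptor Il4ra (0.39, SE 0.0679) and the metalloproteinase inhibitor Timp1 (0.46, SE 0.116). Timp1 was lost without any 1 of 5 samples (all but EE + SNA 2), with adjusted P-values from 0.0645 to 0.152. Without EE Sham 2 the list had 7 genes higher, and without EE + SNA 3 and EE Sham 3 together it had 2.

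Of 12 glucocorticoid-responsive genes 2 rose (median 0.24), Angptl4 (0.59, SE 0.118) and Per1 (0.38, SE 0.0936). Per1 was lost without any 1 of 5 samples (all but EE Sham 2), with adjusted P-values from 0.0704 to 0.152, and Angptl4 without EE Sham 3 (0.0530), so that neither was called without EE Sham 3. Of 15 circadian clock genes 1 rose, Bhlhe41, a transcriptional repressor, from 65.2, 56.9 and 62.6 CPM to 96.7, 89.5 and 92.4 CPM (0.59, SE 0.0700, adjusted P = 0.000773), against a median of 0.00113, and it shares 1280 exon bases with an antisense gene. Without EE Sham 2 the clock list had 2 genes higher. Of 19 cholesterol synthesis genes 1 rose, Hsd17b7 (0.36, SE 0.0850, median of the list 0.0613), and it was lost without EE + SNA 1 (adjusted P = 0.132), EE + SNA 2 (0.0807), EE Sham 2 (0.0620) or EE Sham 3 (0.123). With 2.51% of all genes tested higher, single calls in lists this small are not a result about the list.

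None of the 9 NADPH oxidase genes passed the test, although 8 had a fitted value above 0 and the median was 0.50, and 4 were higher without a filter on low counts. EE + SNA 3 was the highest of the 3 injured samples for 8 of the 9, all but Nox4. Cybb, the catalytic subunit of NOX2, was at 4.81, 6.35 and 17.2 CPM against 5.68, 8.58 and 7.31 CPM (0.35, SE 0.374, adjusted P = 0.646), and Ncf1 at 5.34, 4.0 and 15.6 CPM against 5.68, 6.00 and 4.31 CPM (0.58, adjusted P = 0.468). For both genes EE + SNA 1 and 2 did not exceed the highest sham sample. Cyba was at 5.07, 4.18 and 8.30 CPM against 3.43, 4.02 and 3.49 CPM, without overlap (0.64, SE 0.247, adjusted P = 0.169). None of 13 tested cell cycle genes passed either (median 0.34), and Mki67 showed the same sample apart, at 6.05, 5.05 and 21.9 CPM against 9.84, 8.12 and 4.55 CPM. EE + SNA 3 also had the highest neutrophil, red blood cell and macrophage marker sums of the 6 samples, and the part of those cells in these genes was not tested.

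All 13 myelin genes had a fitted value above 0 (median 0.39) and none passed. Drp2, of the dystrophin complex of myelinating Schwann cells, was at 608, 613 and 669 CPM against 347, 573 and 415 CPM (0.49, adjusted P = 0.0709), and Mbp at 2018, 2059 and 2625 CPM against 1261, 1943 and 1577 CPM (0.48, adjusted P = 0.0761). EE Sham 2 was the highest sham sample for both genes, and without it 10 of the 13 were called higher. With all samples 4 were higher by DESeq2, 7 by the edgeR likelihood ratio test and 5 with the replicate block. Of 10 satellite glia genes 1 rose (median 0.0651), Glul, glutamine synthetase, at 623, 572 and 691 CPM against 451, 523 and 492 CPM (0.36, SE 0.0819), and it was lost without EE + SNA 1 (adjusted P = 0.0956), EE + SNA 3 (0.0922), EE Sham 1 (0.0882) or EE Sham 3 (0.116). All 16 collagen and matrix genes had fitted values above 0 (median 0.28) and 1 rose, the type IV collagen gene Col4a2 (0.48, SE 0.116). Col4a2 was lost without EE + SNA 2 (adjusted P = 0.0917), EE + SNA 3 (0.0944), EE Sham 1 (0.0986) or EE Sham 3 (0.153), which left no gene of the list called in those fits, and without EE Sham 2 the list had 7 genes higher. The single calls among satellite glia and matrix genes stand beside 2.51% higher over all genes tested and are not a result about those lists. None of 14 interferon response genes changed (median 0.0444), and 2 were higher without EE Sham 2.

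Of 10 sensory neuron markers, Isl1, a transcription factor of sensory neurons, fell from 116, 97.8 and 104 CPM to 84.5, 81.0 and 75.7 CPM (−0.40, adjusted P = 0.0104), and the median was −0.15. None of the 10 macrophage markers (median 0.41), 8 neutrophil markers (0.97), 6 tested red blood cell markers (0.58), 3 tested lymphocyte markers (0.66), 4 tested adipocyte markers (1.2), 8 satellite and Schwann cell markers (0.11), 7 endothelial markers (0.21), 5 tested sympathetic neuron markers (−0.10), 2 tested spinal cord markers (0.46) or 4 tested sex-linked genes (−0.10) passed. Of 6 fibroblast markers 1 rose, the proteoglycan gene Dcn, from 422, 462 and 476 CPM to 598, 511 and 642 CPM (0.36, adjusted P = 0.0340). The macrophage sums did not overlap, at 163, 168 and 271 CPM in EE + SNA and 123, 132 and 158 CPM in EE Sham in order, but the lowest injured and highest sham samples were close. Adipocyte sums were 25.9, 55.8 and 92.0 CPM against 11.6, 18.7 and 44.7 CPM in order and overlapped.

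**Figure D4:**
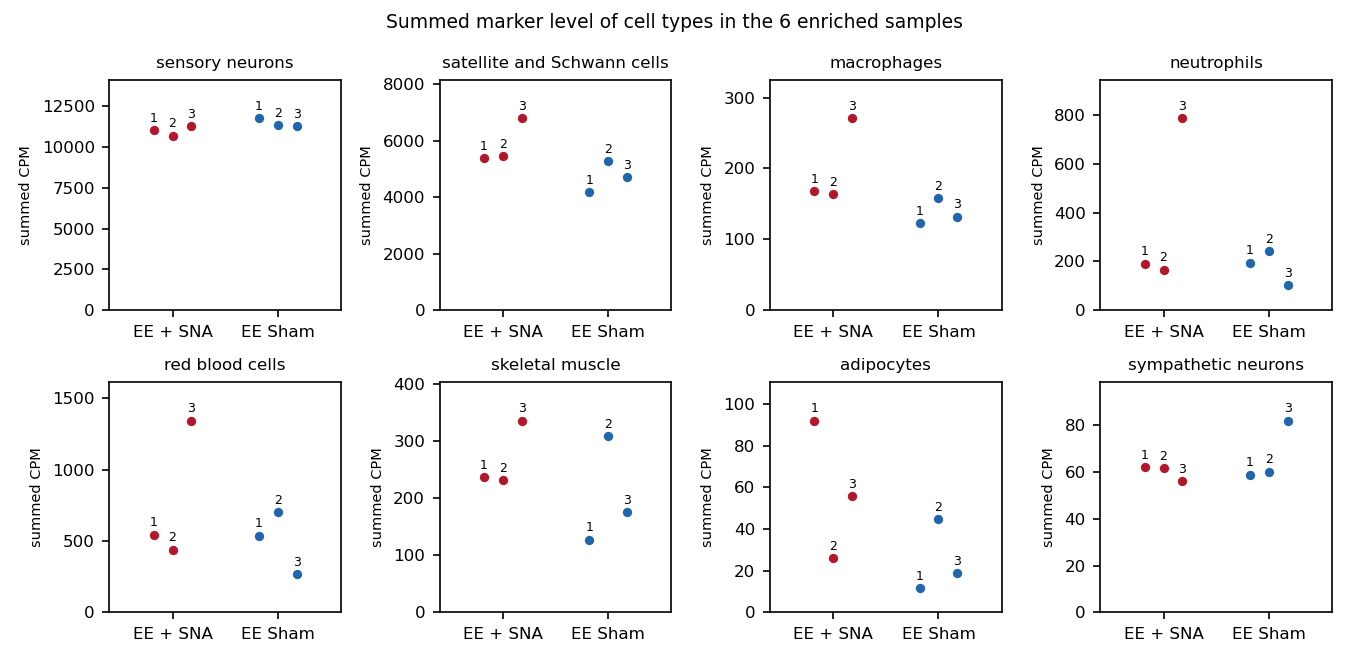
Summed CPM (y axis, from 0) of the markers of 8 cell types in each of the 3 EE + SNA samples (red) and 3 EE Sham samples (blue), with the replicate number over each point. EE + SNA 3 stands apart in neutrophils at 786 CPM and is the highest sample for red blood cells and macrophages, and EE Sham 3 is the highest for sympathetic neurons at 82.0 CPM.

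The injury response of mice in standard housing, measured in the other 6 samples, had the same direction in nearly all of these genes. SH SNA against SH Sham changed 1823 genes, 11.2% of those tested, and 681 of the 785 genes that changed in enriched mice were among them, each in the same direction. They are 86.8% of the enriched list and 37.4% of the standard list. Of the 785 genes, 781 had a fitted change of the same sign in standard housing, and the 4 others were Cep85, Clk1, Id1 and Clec14a, named after their values were seen, with log2 fold changes of 0.48, 0.29, −0.50 and 0.57 in enriched and −0.03, −0.13, 0.07 and −0.25 in standard housing. Of the 104 genes that changed in enriched mice alone, 100 had the same sign in standard housing and 62 of those had an unadjusted P-value below 0.05 there. Of the 1142 genes that changed in standard housing alone, 1128 had the same sign in enriched mice and 760 of those had an unadjusted P-value below 0.05. The median SE was close in the comparisons, 0.108 in enriched and 0.102 in standard housing. Across the 16238 genes the 2 sets of log2 fold changes had a Pearson r of 0.642 and a Spearman rho of 0.626, which describes genes and not independent replicates.

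In the 681 shared genes the median size of change was 0.49 in enriched and 0.53 in standard housing on the log2 scale, and 442 of the 681 genes had the smaller change in enriched mice and 238 the larger. This difference over the list was not tested. Whether any single gene responded differently was tested in a fit of all 12 samples with a term for housing by surgery. No gene passed after adjustment with the edgeR quasi-likelihood test (smallest adjusted P 0.458), and 423 genes, 2.61% of those tested, had an unadjusted P-value below 0.05. With other tools 1 gene, Zbtb16, passed by the edgeR likelihood ratio test and by DESeq2, and 77 genes passed without the filter on low counts. Of the 785 genes, 41 (5.22%) had an unadjusted interaction P-value below 0.05, and 22 of these had the smaller change in enriched mice. The 785 were chosen for their change in enriched mice, which is part of the interaction. Neither the share nor the direction is therefore read as a result.

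**Figure D5:**
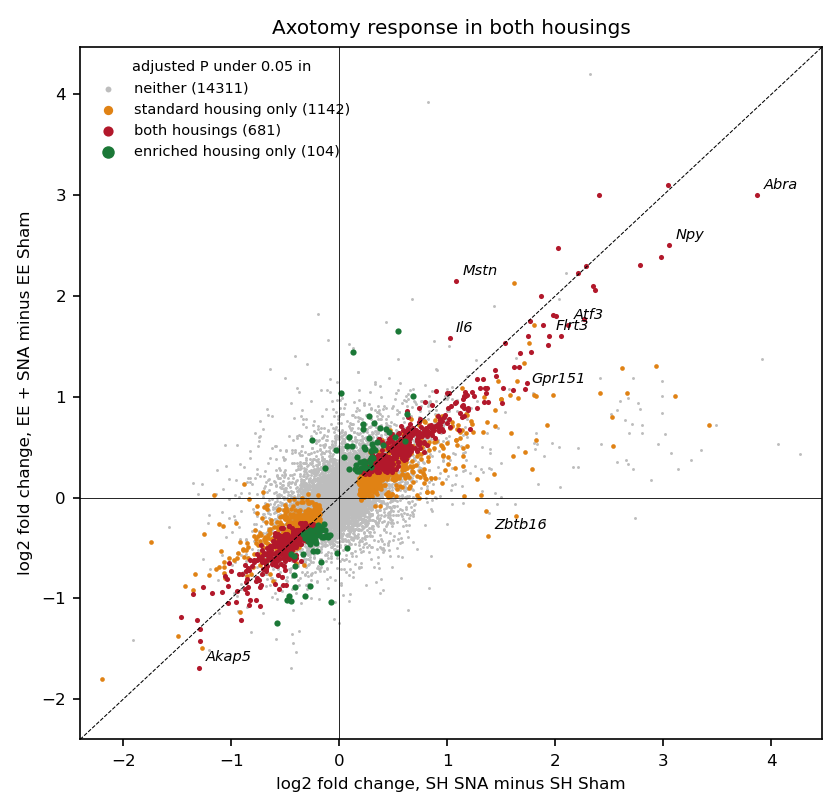
Log2 fold change after axotomy in enriched mice (y axis) against that in standard housing (x axis) for the 16238 genes tested, 1 point a gene, coloured by the comparison in which the adjusted P-value was below 0.05, with a dashed line at equal change. The 681 genes changed in both lie on both sides of the line in the lower left and upper right quadrants, and Zbtb16 lies below 0 in enriched and above 0 in standard housing.

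Atf3 had a smaller fitted change in enriched mice. In standard housing it was at 549, 502 and 499 CPM after axotomy and 110, 138 and 110 CPM after sham surgery, a log2 fold change of 2.12 against 1.71 in enriched mice. The difference was −0.40 (95% interval −0.68 to −0.11, unadjusted P = 0.00916, adjusted P = 1, edgeR quasi-likelihood test). Gpr151, an orphan receptor of injured neurons, had the second smallest interaction P-value. It went from 13.9, 13.7 and 16 CPM to 32.0, 27.0 and 33.9 CPM in enriched mice (1.07, SE 0.110) and from 12.4, 11.8 and 11.8 CPM to 43.4, 38.0 and 37.1 CPM in standard housing (1.72), with a difference of −0.63 (95% interval −0.94 to −0.33, unadjusted P = 0.000461, adjusted P = 1). Fam124a was at 25.8, 23.0 and 24.8 CPM against 24.1, 20.7 and 22.6 CPM in enriched mice and did not pass (0.12, adjusted P = 0.509), while it rose by 0.65 in standard housing. The difference was −0.53 (95% interval −0.81 to −0.25, unadjusted P = 0.000923, edgeR quasi-likelihood test) and did not pass after adjustment. Gpr151 and Fam124a were named for their small interaction P-values, so intervals that exclude 0 follow from that choice.

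For most other leading genes the difference between housings was small beside its interval. It was −0.00463 for Jun (95% interval −0.19 to 0.18), −0.00134 for Oprl1 (−0.28 to 0.28), −0.00492 for Vwc2l (−0.39 to 0.38) and −0.14 for Gadd45a (−0.45 to 0.18). Intervals this wide do not show that the housings act alike. All 10 genes that rose most were also higher in standard housing, and of the 10 that fell most 9 were also lower there, with Grhl3 as the exception (−0.57, adjusted P = 0.131). Of the 10 that rose most, the interval of Mstn alone excluded 0, at 1.07 (0.08 to 2.07, unadjusted P = 0.0366), with a log2 fold change of 2.15 in enriched and 1.08 in standard housing. The intervals of all 10 that fell most held 0. Mstn did not pass after adjustment. It was chosen for its large change in enriched mice, which is part of this difference, so the choice favours a difference above 0. Of the 77 changed genes named by rule in enriched mice, 72 also changed in standard housing.

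The standard housing comparison called 11.2% of the genes tested and the enriched one 4.83%. Of the 26 function lists, standard housing had more members called, in either direction, in 20, equal numbers in 5 and fewer in 1, collagen and matrix genes. For 6 of the lists described above the counts were 10 against 7 of the injury transcription factors, 12 against 10 of the axon growth effectors, 10 against 4 of the potassium and HCN channels lower, 8 against 6 of the inhibitory receptors lower, 7 against 2 of the synaptic vesicle genes lower and 8 against 4 of the acute phase genes higher. The medians did not follow the counts in every list, at 0.37 against 0.48, 0.78 against 0.51, −0.25 against −0.23, −0.31 against −0.41, −0.11 against −0.16 and 0.65 against 0.58 for standard and enriched housing in the same order. Interferon genes were called higher for 3 of 14 members in standard housing and for none in enriched mice, and the counts were not tested against each other. Skeletal muscle markers had a median of 2.68 in standard housing, where 1 injured sample reached a sum of 1210 CPM.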

How the data were processed

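DRG RNA of 12 samples was sequenced from TruSeq mRNA libraries. The authors deposited a table of raw read counts per gene, from HTSeq (0.6.0) on TopHat2 (2.0.12) and Bowtie2 (2.2.3) alignments to mm10 per the labels. The authors also deposited FPKM values, and these served only as an alternative. The strand setting is not given in the sources used here. Summary entries for reads with no feature, an ambiguous or a non-unique position (56.3% to 56.78% of entries in the table) were left out, and no per-sample column belonged to another series. Genes were filtered with filterByExpr (minimum count 10, total 15) on all 12 samples in their 4 groups. The counts of the 6 enriched samples were then scaled by TMM. They were tested with edgeR (4.0.16, R 4.3.3) by glmQLFTest, two-sided, with Benjamini-Hochberg adjustment at 0.05. The SE is the fitted log2 fold change divided by the square root of F. Standard housing and the interaction (all 12 samples) were fitted likewise. Intervals are 95% t intervals.

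The genes named were 6 check genes, the 10 genes per direction with the largest change among those past the threshold, without overlap and with at least 1 CPM, up to 4 members per list and 5 interaction genes, plus genes named for contrast after their values were seen. Members and lists were chosen with earlier results of these data known. Alternatives were the likelihood ratio test, DESeq2 (1.42.0), library size scaling, other filters, 1 fit of all 12 samples, the replicate number as a block, limma (3.58.1) on log2(FPKM + 1) and log2(FPKM + 0.1), and leaving out each sample. Leaving out EE + SNA 3 and EE Sham 3 together was added after seeing the data. The tests were tested on simulated data. Libraries of the same group differed by more than sampling noise in each pair. Some genes are not reported here.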

Additional observations from a re-analysis of the deposited data

Results flagged for a closer look

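Among the genes named by rule, 3 had every EE + SNA sample below every EE Sham sample and every SH SNA sample above every SH Sham sample. The other genes tested were not searched for this pattern. All 3 were among the 5 genes named for the smallest interaction P-values, a choice that favours such a pattern. Zbtb16, a zinc-finger transcription factor that responds to glucocorticoids, was at 9.17, 11.0 and 8.22 CPM against 12.3, 13.8 and 11.1 CPM in enriched mice, and at 11.9, 8.53 and 15.4 CPM against 2.99, 5.09 and 5.82 CPM in standard housing. The difference between the log2 fold changes was −1.755 (unadjusted P = 2.82e-05, adjusted P = 0.458, edgeR quasi-likelihood test on 12 samples). It passed by the edgeR likelihood ratio test (adjusted P = 0.000848) and DESeq2 (adjusted P = 0.000133), and its adjusted P ranged from 1.13e-14, without the filter on low counts, to 1 over the alternatives. In Klhdc1 the difference was −0.6235 and in Gm4723 −0.8595, both with an adjusted P of 1.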

How the results depend on the processing

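The number of genes changed in enriched mice was 785, and 1303 by the edgeR likelihood ratio test, 1694 without a filter on low counts, 1278 in 1 fit of all 12 samples, 481 on log2(FPKM + 1) and 470 on log2(FPKM + 0.1). It was 361 to 1082 when 1 sample was left out, with the low end without EE Sham 3 and the high end without EE Sham 2, and 235 without EE + SNA 3 and EE Sham 3. DESeq2 (923), library size scaling (783) and a stricter filter (852) stayed within 1.5 times. With the replicate block the count was 887. Deviations from the group mean in same-numbered samples had r of 0.136, −0.145 and −0.0458. In pairs with different numbers r ran from −0.193 to 0.234, so this check cannot decide whether the numbers pair the samples. At an unadjusted P below 0.05 the count of 3352 was 1998 without both samples and 2468 to 3939 with 1 left out. The 1823 genes of standard housing were 1207 to 1683 with 1 sample left out. The interaction gave 0 genes, 1 by the likelihood ratio test, 1 by DESeq2 and 77 without a filter. The shared 681 genes were 743 at an unadjusted P in standard housing and 784 by DESeq2. Of the 77 changed genes named by rule none reversed, 53 kept their call in all 6 fits with 1 sample left out, and 46 kept it without both samples. Npy lost its call by DESeq2 (2.55, adjusted P = 0.134). Cdk1, not called, was 0.64, from 0.163 to 0.999 with 1 sample left out, and −0.00185 without both samples. Depth limits the genes near 1 CPM, and 3 pools a group limit all tests. Counts of list members also moved with the tool: potassium and HCN channels lower were 8, protein kinase C and diacylglycerol kinases lower 8 and acute phase genes higher 8 by the likelihood ratio test, and without a filter calcium channels lower were 3, cell cycle genes higher 2 and collagen and matrix genes higher 8.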
